A study of Drosophila melanogaster with 24 samples.

Results

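The heat-inducible Hsp70 genes of Drosophila melanogaster and their relative Hsp68 were followed library by library. Of the 15682 gene symbols counted, 7 were chosen by name: the Hsp70 copies Hsp70Aa, Hsp70Ab, Hsp70Ba, Hsp70Bb, Hsp70Bbb and Hsp70Bc, and Hsp68. The 6 copies were also added up within each library, since reads of near-identical copies are hard to assign to a single copy. Reads that aligned to several places were held in a separate row and are not in this sum. The study sequenced RNA of male flies at 10 days of age, in 8 groups of 3 libraries labelled as biological replicates. All flies carried the Mhc driver, which is active in muscle. In thoraces, which are mostly skeletal muscle, the driver expressed an RNAi transgene in the genotypes Mhc>ProsB1RNAi and Mhc>ProsB5RNAi (catalytic subunits of the proteasome), Mhc>Ter94RNAi (the p97 ATPase that unfolds ubiquitylated proteins), Mhc>CG6272RNAi (a bZIP protein), or, as controls, Mhc>whiteRNAi and Mhc>GFPRNAi. Heads came from Mhc>Amyrel flies, in which muscle overexpressed an amylase-related gene, and from isogenic Mhc>+ controls without a second transgene. Each group stands for 1 genotype, so that a knockdown and its RNAi line cannot be told apart, and, because the titles of the CG6272 libraries have another form, a batch of their own and that knockdown cannot be told apart.

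Hsp70 proteins bind unfolded stretches of other proteins and release them in cycles of ATP hydrolysis, together with J proteins and nucleotide exchange factors. The constitutive Hsc70 genes supply this activity at all times, whereas the inducible Hsp70 copies are nearly silent in unstressed fly cells. Their promoters hold a paused polymerase, kept there by GAGA factor and NELF, which is released when unfolded proteins free the transcription factor Hsf to bind as a trimer. Hsp68 is a diverged inducible gene of the same family. In the BDGP6 annotation each of the 7 genes lies on arm 3R and has 1 exon of 2231 to 2386 bases. Hsp70Aa and Hsp70Ab are neighbours, as are Hsp70Bbb, Hsp70Bb and Hsp70Bc. Hsp70Ab overlaps CG3281 and Hsp68 overlaps CG6000 and lncRNA:CR44097, each on the opposite strand, and the strand setting of the counts is not given in the sources used here. CG6000 counted 9.76 to 11.8 reads per 1000000 reads in genes (CPM) in Amyrel heads and 9.67 to 11.5 CPM in control heads. In thoraces it counted 16.3 to 41.3 CPM. These counts cannot show whether reads of the opposite strand were assigned to Hsp68.

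Libraries held 28.9 to 79.2 M (units of 1000000) reads in genes in thoraces and 47.5 to 75.7 M in heads. The Hsp70 sum rested on 725 to 38660 reads a library and Hsp68 on 543 to 74494, and exact 95% binomial intervals (Clopper-Pearson, counting error only) were 2.00 to 14.7% and 1.44 to 17.0% of the value wide. Single copies rested on as few as 40 reads. Reads that aligned to several places were 9.67 to 10.15% of a library in white and 10.5 to 13.2% in GFP thoraces. They were 7.87 to 9.08% in ProsB1, 8.23 to 8.99% in ProsB5, 7.42 to 7.86% in Ter94 and 6.30 to 9.21% in CG6272 thoraces, below every control. How many of them came from Hsp70 copies is not known, and their part in the differences from controls was not tested. Prosbeta1, Prosbeta5, TER94 and CG6272 were each lower in their own knockdown, by 0.93, 1.05, 0.61 and 0.94 on the log2 scale, and Amyrel was at 7.01 ± 0.18 CPM in Amyrel heads, against 0.0921 ± 0.0305 CPM in control heads (SD, n = 3 each). Muscle markers summed to 12432 to 22039 CPM in thoraces. The control thoraces differed in transcripts of other tissues. The photoreceptor opsin gene ninaE stood at 0.218 to 18.9 CPM in the 12 libraries of the ProsB1, ProsB5, Ter94 and CG6272 knockdowns, against 376 CPM in white replicate 1, 178 and 327 CPM in GFP replicates 2 and 3, and 0.700 to 28.2 CPM in the other 3 controls. Acp36DE, a seminal protein gene of the accessory gland, reached 124 CPM in ProsB5 replicate 1, at 36.6 CPM in white replicate 2 and at 60.2 CPM in GFP replicate 1, and at 6.42 CPM or less elsewhere.

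The Hsp70 sum was highest, by group mean, in thoraces with proteasome knockdown and lowest in those with CG6272 knockdown. Means fell in the order ProsB5, ProsB1, Ter94, white, GFP, Amyrel heads, control heads and CG6272, at 749.9, 407, 309.7, 143, 122, 114, 38.8 and 20.2 CPM. Neighbours in that order overlapped between libraries, except Amyrel heads over control heads and control heads over CG6272 thoraces. Hsp68 had another order, with Amyrel heads at 811 CPM and control heads at 98.5 CPM, then ProsB5 at 96.9, Ter94 at 56.8, ProsB1 at 55.9, white at 32.3, GFP at 31.0 and CG6272 at 15.8 CPM. There the libraries of neighbours did not overlap between Amyrel heads and control heads, nor between GFP and CG6272 thoraces. Within a group the Hsp70 sum differed between libraries by 1.202-fold in CG6272 thoraces and by up to 6.60-fold in white thoraces.

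**Figure D1:**
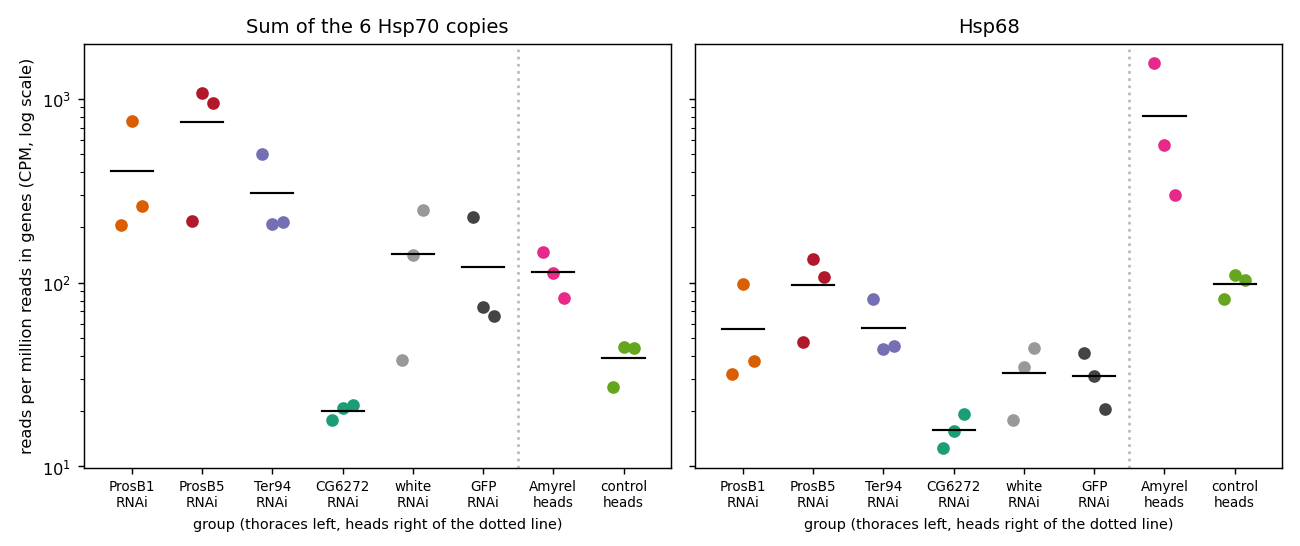
CPM (log axis) of the 6 Hsp70 copies together (left) and of Hsp68 (right) in each of 24 libraries, with the group mean as a line. The ProsB5 libraries reach 1082 CPM in the Hsp70 sum and the CG6272 libraries stay at 18 to 21.6 CPM, whereas Hsp68 is highest in Amyrel heads, at 300.4 to 1567 CPM.

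All members were higher after knockdown of ProsB5. The Hsp70 sum was at 216, 1082 and 951 CPM in ProsB5 replicates 1 to 3, against 37.7, 142 and 249 CPM in white and 228, 73.8 and 65.9 CPM in GFP replicates 1 to 3. Replicates 2 and 3 lay above every control and replicate 1 lay among them. The sum was 5.42-fold higher than the mean of the control groups (log2 2.44 ± 0.64 SE, adjusted p = 0.0117). Hsp68 was at 47.6, 135 and 108 CPM in ProsB5 libraries, against 17.9, 34.7 and 44.3 CPM in white and 41.5, 31.1 and 20.5 CPM in GFP libraries. All ProsB5 libraries lay above all controls, by a log2 fold change of 1.55 ± 0.41 (adjusted p = 0.0122). All 7 members passed the test as higher, where 17.3% of all genes tested were higher and 13.8% lower. The largest change was that of Hsp70Ba, at 12.1, 65.9 and 49.5 CPM in ProsB5 libraries, against 1.95, 4.89 and 11.2 CPM in white and 9.47, 3.10 and 3.75 CPM in GFP libraries (log2 2.83 ± 0.59, adjusted p = 0.00320). Hsp70Bbb was at 29.5, 151 and 123 CPM in ProsB5 libraries, above the 5.14 to 26.5 CPM of the controls (log2 2.81 ± 0.63, adjusted p = 0.00487). Hsp70Bb was at 38.8, 207 and 158 CPM in ProsB5 libraries, the lowest of them just over the highest control, at 37.1 CPM (log2 2.60 ± 0.58, adjusted p = 0.00458). Hsp70Aa, Hsp70Ab and Hsp70Bc changed by 2.29, 2.27 and 2.66 on the log2 scale, with ProsB5 replicate 1 inside the control range for each.

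The ProsB5 result depended on which controls it was set against. The 3 controls high in ninaE held the 3 lowest Hsp70 sums of the controls, at 37.7 CPM in white replicate 1 and 73.8 and 65.9 CPM in GFP replicates 2 and 3. The 7 photoreceptor markers, all called lower in ProsB5 thoraces, summed to 101 to 118 CPM in ProsB5 libraries, against 908, 488 and 826 CPM in these 3 controls and 117 to 181 CPM in the others, and their part in the result was not tested. On the log2 scale, without them the Hsp70 sum was 1.78 higher at an adjusted p of 0.113, Hsp68 was 1.21 higher at an adjusted p of 0.131, and 0 of 7 members were called. Without ProsB5 replicate 2 the sum was 2.09 higher (adjusted p = 0.0554) and Hsp68 1.23 higher (adjusted p = 0.0749), and 4 members were called. Over the alternatives that left out no single library, adjusted p ranged from 0.00224 to 0.113 for the sum and from 0.00421 to 0.131 for Hsp68. Without the libraries high in Acp36DE, ProsB5 replicate 1 among them, the sum was 3.27 higher (adjusted p = 0.00799) and Hsp68 2.03 higher (adjusted p = 0.0132). The 5 haemocyte markers, all called higher, summed to 638 to 668 CPM in ProsB5 libraries, against 398 to 482 CPM in the controls. The 4 fat body markers summed to 1764 to 3975 CPM in ProsB5 libraries, against 192 to 1125 CPM in the controls, and 2 of the 3 that passed the filter were called higher. Of 8 muscle markers 4 were called lower. Their sum was 14046.5 to 17836 CPM in ProsB5 libraries, against 16725.5 to 17722 CPM in white and 18238 to 22039 CPM in GFP libraries. Of 5 gut markers 3 were called higher, although their sum, at 886 to 1816 CPM, overlapped the 1098 to 1717 CPM of the controls. The part of these lists in the result was not tested. Fewer cells of a type and less RNA per cell cannot be told apart in such bulk samples.

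Knockdown of ProsB1 gave values in the same direction, of which 1 copy passed. The Hsp70 sum was at 206, 755 and 260 CPM in ProsB1 libraries, against 37.7 to 249 CPM in the 6 controls (log2 1.55 ± 0.64, adjusted p = 0.110). Only replicates 2 and 3 lay above every control. Hsp68 was at 32.0, 98.2 and 37.6 CPM in ProsB1 libraries, of which replicate 2 alone exceeded the controls (log2 0.75 ± 0.42, adjusted p = 0.233). Hsp70Ba was called as higher, at 10.1, 40.0 and 15.6 CPM in ProsB1 libraries (log2 1.87 ± 0.60, adjusted p = 0.0431), with the lowest of them inside the control range of 1.95 to 11.2 CPM. That is 1 of 7 members, where 11.6% of all genes were higher and 9.73% lower, and DESeq2 called 2. The alternatives that left out no single library, DESeq2 among them, called 1530 to 2704 genes in all. Hsp70Bbb came next, at 22.3, 101 and 34.9 CPM in ProsB1 libraries, against 5.14 to 26.5 CPM in controls (log2 1.86 ± 0.63, adjusted p = 0.0541). With replicate number as a block Hsp70Ba was 1.76 higher on the log2 scale (adjusted p = 0.0789) and 0 members were called; libraries of the same number correlated over 0.1 in 5 of 6 pairs of ProsB1 with control libraries. Without the ninaE-high controls Hsp70Ba was not called either, and its adjusted p over alternatives ran from 0.0237 to 0.280. It also lost the call without ProsB1 replicate 2 or 3, GFP replicate 2 or 3 or white replicate 1 or 2, in which adjusted p reached 0.286. Without ProsB1 replicate 2 the Hsp70 sum was 0.76 higher on the log2 scale and Hsp68 0.08 higher. The haemocyte markers summed to 522 to 561 CPM in ProsB1 libraries, against 398 to 482 CPM in controls, with 3 of 5 called higher. Of 7 photoreceptor markers 4 and of 8 muscle markers 2 were called lower. Of 5 gut markers 3 and of 3 measured fat body markers 1 were called higher. The part of these lists in the result was not tested. The ProsB5 and ProsB1 contrasts share their controls, so the knockdowns were also compared directly. The sum had a log2 fold change of 0.89 ± 0.77 in ProsB5 over ProsB1 thoraces (adjusted p = 0.620) and Hsp68 by 0.80 ± 0.49 (adjusted p = 0.423), and 0 of 7 members were called by edgeR or DESeq2 or had an unadjusted p under 0.05, where edgeR called 5.97% of all genes. With 1 library left out these differences ran from 0.53 (without ProsB5 replicate 2) to 1.68 (without ProsB1 replicate 2) for the sum and from 0.49 to 1.46 for Hsp68, at the same libraries, and none passed.

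In Ter94 thoraces the Hsp70 sum was at 505, 209 and 215 CPM, against 37.7 to 249 CPM in the 6 control thoraces, and replicate 1 alone lay above all controls. The log2 fold change of the sum was 1.00 ± 0.65 (adjusted p = 0.200). Hsp68 was at 81.6, 43.5 and 45.5 CPM in Ter94 libraries, with replicate 2 inside the control range of 17.9 to 44.3 CPM (log2 0.62 ± 0.42, adjusted p = 0.223). No member was called by edgeR, although 29.7% of all genes were higher and 28.4% lower, while 2 of 7 had an unadjusted p under 0.05 and DESeq2 called 1. The alternatives that left out no single library, DESeq2 among them, called 5763 to 6730 genes in all. Hsp70Bb came closest, at 91.7, 53.7 and 55.5 CPM in Ter94 libraries, against 7.91 to 37.1 CPM in controls, with no overlap (log2 1.43 ± 0.58, adjusted p = 0.0508). Its adjusted p ran from 0.0239 to 0.307 over the alternatives and from 0.0146 to 0.173 with 1 library left out, under the threshold without GFP replicate 1 or white replicate 3. Hsp70Bc was the other copy without overlap in CPM, at 32.3, 14.9 and 17.5 CPM in Ter94 libraries, against 2.62 to 13.9 CPM in controls (log2 1.39 ± 0.63, adjusted p = 0.0752). CPM are without TMM scaling, which lowers Ter94 libraries against controls. The promoter factor gene TH1, at 19.6 and 19.4 CPM, had a log2 fold change of -0.22. Whether the narrow gaps of Hsp70Bc, and of Hsp68 in replicate 3, remain after this scaling was not tested. Without Ter94 replicate 1 the sum was 0.45 and Hsp68 0.28 higher than in controls on the log2 scale. Over the other alternatives the sum ran from 0.34 to 1.40. The 5 haemocyte markers, all called lower, summed to 328 to 378 CPM in Ter94 libraries, against 398 to 482 CPM in controls. Of 7 photoreceptor markers 5 were called lower, all 3 neuron markers higher, and of 5 gut markers 2 higher and 3 lower. Of 8 muscle markers 2 and of 3 measured fat body markers 1 were called lower. The part of these lists in the result was not tested. Against the mean of both proteasome knockdowns the log2 fold change of the sum was -0.99 ± 0.69 in Ter94 thoraces (adjusted p = 0.244), and no member was called by edgeR or DESeq2 or had an unadjusted p under 0.05, where edgeR called 57.1% of all genes. With 1 library left out the sum ran from -1.55 (without Ter94 replicate 1) to -0.60 (without ProsB1 replicate 2), and 0 or 1 members were called lower.

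All members were lower after knockdown of CG6272. The Hsp70 sum was at 18, 20.9 and 21.6 CPM in CG6272 libraries, below all 6 controls, whose lowest value was 37.7 CPM. It was 6.71-fold lower (log2 -2.75 ± 0.64, adjusted p = 0.0195). Hsp68 was at 12.6, 15.6 and 19.4 CPM in CG6272 libraries, and the highest of these exceeded the lowest control, at 17.9 CPM (log2 -1.03 ± 0.31, adjusted p = 0.0434). All 7 members passed as lower, where 9.53% of all genes were lower and 13.3% higher. The neighbours Hsp70Aa and Hsp70Ab had the largest changes. Hsp70Aa was at 2.74, 3.57 and 3.80 CPM in CG6272 libraries, against 9.58, 53.3 and 77.5 CPM in white and 67.7, 20.2 and 15.9 CPM in GFP libraries (log2 -3.61 ± 0.76, adjusted p = 0.0135). Hsp70Ab was at 3.48, 4.34 and 4.64 CPM in CG6272 libraries, against 10.6 to 84.1 CPM in controls (log2 -3.43 ± 0.74, adjusted p = 0.0149). The other 4 copies lay between -2.24 and -1.87 on that scale.

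The fall in CG6272 thoraces was larger against the controls low in ninaE. On the log2 scale, without the 3 ninaE-high controls the sum was -3.41 (adjusted p = 0.0124), Hsp68 was -1.38 (adjusted p = 0.0345), and 7 of 7 members were called. CG6272 libraries had 17.0 to 18.9 CPM of ninaE and no more than 0.101 CPM of Acp36DE. Without GFP replicate 1 and white replicate 2, which were high in Acp36DE, the sum was -2.36 (adjusted p = 0.0536) and Hsp68 -0.88 (adjusted p = 0.136), and 2 members were called. The 6 accessory gland markers summed to no more than 0.328 CPM in CG6272 libraries, against 106 CPM in GFP replicate 1 and 70.9 CPM in white replicate 2, and their part in the result was not tested. Without CG6272 replicate 1 the sum was -2.66 (adjusted p = 0.0605). Hsp68 lost its call without CG6272 replicate 1 or 2, GFP replicate 1 or 2 or white replicate 2 or 3, with adjusted p up to 0.121. Over the other alternatives adjusted p ranged from 8.92e-05 to 0.0536 for the sum and from 0.00255 to 0.136 for Hsp68. The number of members called was 1 to 7 with 1 library left out. The 5 haemocyte markers summed to 316 to 380 CPM in CG6272 libraries, below the 398 to 482 CPM of the controls, with 3 of 5 called lower. The 4 fat body markers summed to 1082 to 1795 CPM in CG6272 libraries, against 881 to 1125 CPM in white and 192 to 430 CPM in GFP libraries. Of the 3 that passed the filter 2 were called higher and 1 lower. Of 5 gut markers 2 were called higher and 1 lower. The part of these lists in the result was not tested.

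In heads of Mhc>Amyrel flies Hsp68 had the largest log2 fold change of the 7 members. The SE of Hsp68 (3.05 ± 0.55) and Hsp70Ba (2.63 ± 0.48) overlap, and their order was not tested. Hsp68 was at 1567, 565 and 300.4 CPM in Amyrel heads, against 81.1, 110 and 104 CPM in control heads. The groups did not overlap, and the Amyrel libraries differed among themselves by 5.22-fold. The log2 fold change of 3.05 ± 0.55 (adjusted p = 0.0469) was the fifth largest of the 85 genes called as higher. The Hsp70 sum was at 147, 113 and 82.1 CPM in Amyrel heads, against 27.2, 44.8 and 44.3 CPM in control heads (log2 1.57 ± 0.24, adjusted p = 0.0273). Of the 7 members, 5 passed as higher, where 0.791% of all genes were higher and 0.716% lower. Hsp70Ba was at 14.3, 8.62 and 7.65 CPM in Amyrel heads, against 0.528, 2.37 and 2.17 CPM in control heads (log2 2.63 ± 0.48, adjusted p = 0.0469). Hsp70Bb, at 57.2, 44.8 and 28.3 CPM in Amyrel heads, against 10.9, 16.3 and 15.6 CPM in control heads, changed by 1.61 ± 0.25 (adjusted p = 0.0294). Hsp70Ab, at 37.5, 39.3 and 28.7 CPM in Amyrel heads, against 10.3, 17.2 and 17.0 CPM in control heads, changed by 1.26 ± 0.20 (adjusted p = 0.0329). Amyrel replicate 1 was the highest library of each copy except Hsp70Ab. Hsp70Bbb was low, at 8.69, 4.02 and 4.80 CPM in Amyrel heads, against 1.36, 1.59 and 2.07 CPM in control heads (log2 1.81 ± 0.30, adjusted p = 0.0351). Hsp70Aa (log2 1.48 ± 0.30, adjusted p = 0.0668) and Hsp70Bc (log2 1.73 ± 0.39, adjusted p = 0.0931) did not pass.

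The head calls were close to the threshold. Residuals of head libraries of the same replicate number correlated at 0.155 to 0.239. Pairs of different numbers were not examined, so whether the numbers mark real pairs was not tested. With replicate number as a block Hsp68 was 2.71 higher (adjusted p = 0.103), the Hsp70 sum 1.56 higher (adjusted p = 0.0821) and 0 members were called. DESeq2 called all 7, and also called more of all genes than edgeR did. Over the alternatives adjusted p ranged from 0.000623 to 0.103 for Hsp68 and from 4.41e-05 to 0.0821 for the sum. Leaving out Amyrel replicate 2 or any 1 of the 3 control heads also ended both calls, with adjusted p up to 0.186 for Hsp68 and 0.122 for the sum. The count of 5 members changed with each of the 6 libraries left out, to 3 without Amyrel replicate 1 or control replicate 1, 2 without Amyrel replicate 3, and 0 without Amyrel replicate 2 or control replicate 2 or 3. The number of all genes called changed with the library left out too. Without Amyrel replicate 1, the library with the most Hsp68, the log2 fold change of Hsp68 was 2.16 (adjusted p = 0.0139). Muscle markers summed to 3022 to 3283 CPM in Amyrel heads and to 2963 to 3362 CPM in control heads, and 0 of the 8 muscle and 0 of the 7 photoreceptor markers were called.

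**Figure D2:**
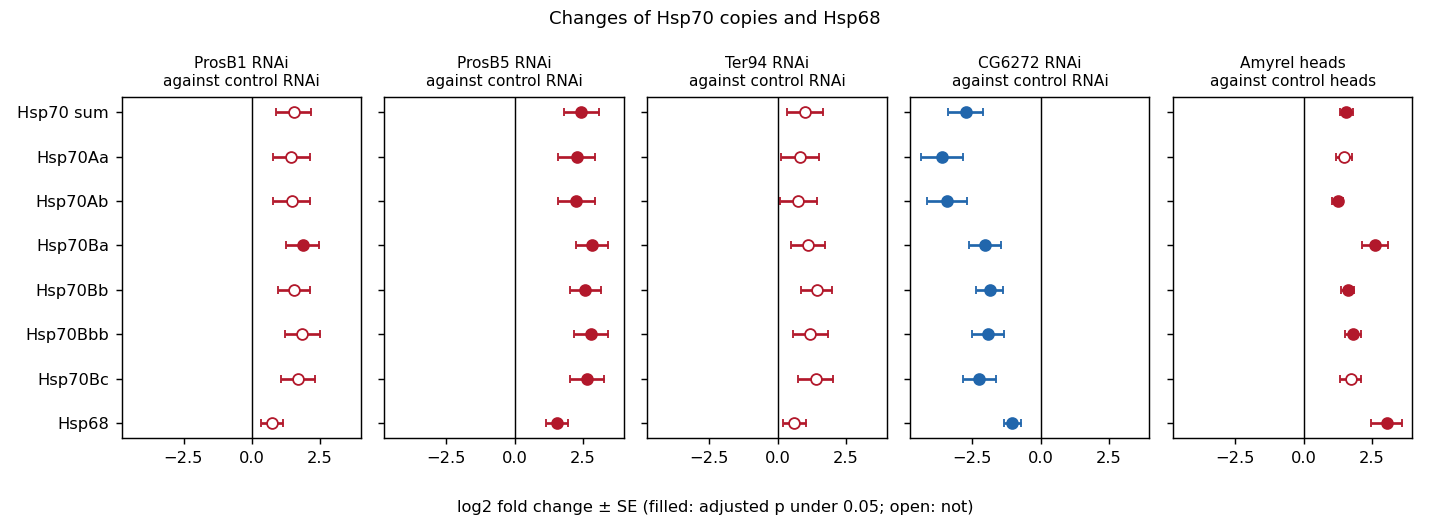
Log2 fold changes with SE of the Hsp70 sum, the 6 copies and Hsp68 in 5 comparisons with 3 libraries in each manipulated group and 6 thorax or 3 head controls. All 7 members are filled (adjusted p under 0.05) on the right in ProsB5 and on the left in CG6272 thoraces. In heads Hsp68, at 3.05, lies to the right of every Hsp70 copy, with an SE that overlaps that of Hsp70Ba.

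The control knockdowns differed less from each other than the libraries within them. The Hsp70 sum was 0.23 ± 0.77 higher in white than in GFP thoraces on the log2 scale (adjusted p = 0.893), and Hsp68 0.07 ± 0.50 higher (adjusted p = 0.953). By edgeR and by DESeq2 0 of 7 members were called, 0 had an unadjusted p under 0.05, and edgeR called 12.9% of all genes. The direction of the sum turned to -0.42 without white replicate 3 and was 1.03 without GFP replicate 1.

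Hsp68 and the Hsp70 sum did not keep 1 ratio. Per kilobase of exon, Hsp68 was 3.87 to 11.3 times the Hsp70 sum in Amyrel heads and 2.49 to 3.16 times in control heads. In thoraces the same ratio was 0.738 to 0.947 after CG6272 knockdown, 0.138 to 0.164 after ProsB1, 0.120 to 0.233 after ProsB5 and 0.171 to 0.225 after Ter94 knockdown, against 0.189 to 0.503 in white and 0.193 to 0.447 in GFP libraries. Reads that aligned to several places are in no count, so Hsp68 relative to Hsp70 can be overstated by an amount not known here. Heads and thoraces also differ in transgenes and libraries, and no test was made between them. The change of the ratio was tested by exact two-sided permutation of libraries, on raw counts, with p adjusted over 8 comparisons. The log2 ratio of Hsp68 to the sum changed by -0.98 in ProsB1 thoraces and by 1.47 in CG6272 thoraces, each without overlap with the 6 controls and each with the smallest p that 3 against 6 libraries allow (exact p = 0.0238, adjusted 0.0952). In Amyrel heads it changed by 1.17 without overlap, where 3 against 3 libraries cannot go below an exact permutation p of 0.1 (adjusted 0.190). The changes in ProsB5 thoraces (-0.94, adjusted exact p = 0.190) and Ter94 thoraces (-0.55, adjusted exact p = 0.286) overlapped the controls. None passed the adjustment. Even at its smallest possible p no comparison could pass by itself with p adjusted over 8, so this outcome does not show that a ratio was unchanged.

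**Figure D3:**
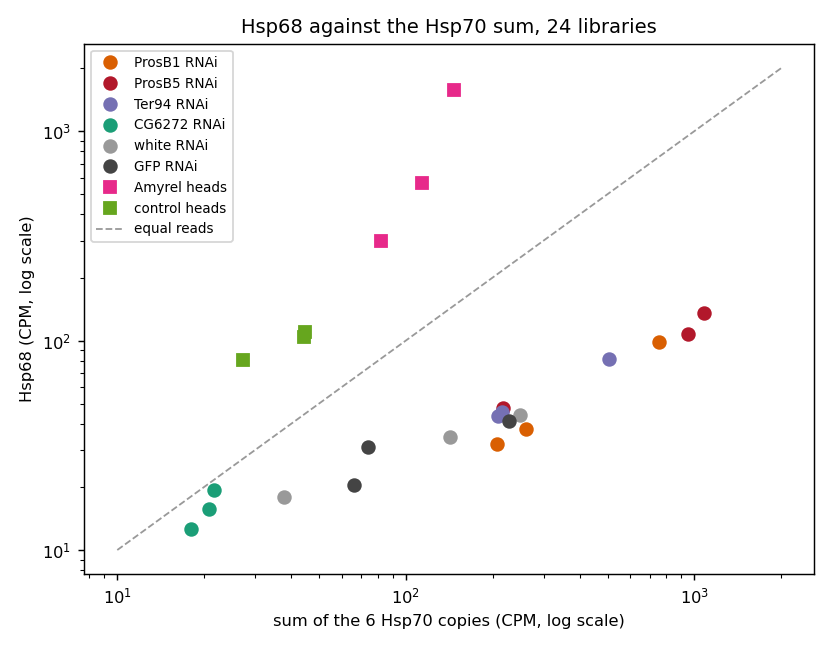
Hsp68 against the Hsp70 sum in CPM (both axes logarithmic), 1 point a library, circles for thoraces and squares for heads. The 18 thorax libraries lie below the dashed line of equal reads and the 6 head libraries above it. Reads that aligned to several places are not counted.

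The split of Hsp70 reads between copies differed between heads and thoraces, and in CG6272 thoraces. These shares depend on how reads of near-identical copies were assigned, and reads that aligned to several places, held in a separate row, were 6.30 to 13.2% of a library. Hsp70Aa held 4.42 to 6.83% of the Hsp70 reads in the 6 head libraries, 15.2 to 17.6% in CG6272 thoraces and 23.6 to 37.4% in the other 15 thoraces. The 3 ranges did not overlap. Its neighbour Hsp70Ab counted 5.01 to 8.53 reads for each Hsp70Aa read in heads and 1.03 to 1.27 in the 18 thoraces. Hsp70Bb held 34.4 to 40.1% in heads, 28.0 to 32.2% in CG6272 thoraces and 9.18 to 27.2% in the other thoraces. Hsp70Bbb was again lowest in heads but highest in CG6272 thoraces, with 3.55 to 5.92% in heads, 18.1 to 18.9% in CG6272 thoraces and 7.62 to 14.0% in the other thoraces. Hsp70Ba and Hsp70Bc held small shares throughout, of 1.94 to 9.72% and 3.10 to 14.8%. Per kilobase, the mean levels in control heads ran from 0.713 (Hsp70Bbb) and 0.728 (Hsp70Ba) to 6.08 (Hsp70Bb) and 6.24 CPM (Hsp70Ab).

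**Figure D4:**
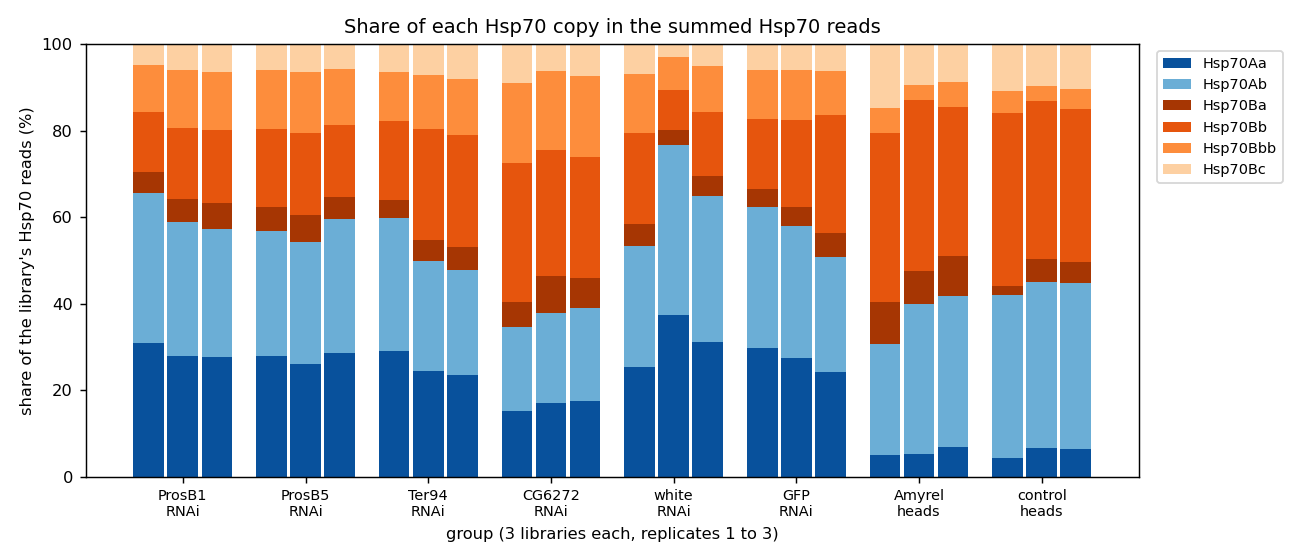
Share of each of the 6 Hsp70 copies in the Hsp70 reads of each of 24 libraries, as stacked bars of 3 replicates a group. Hsp70Aa (dark blue) takes 4.42 to 6.83% in heads and 15.2 to 37.4% in thoraces.

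The median changes of constitutive relatives and partners against controls were small, from -0.19 to 0.28 on the log2 scale. Single genes changed more, among them several in Ter94 thoraces. Lists of these genes were drawn up with earlier results of these data known. Their counts stand beside the shares of all genes, which were 17.3% higher and 13.8% lower in ProsB5, 11.6% and 9.73% in ProsB1, 29.7% and 28.4% in Ter94 and 13.3% and 9.53% in CG6272 thoraces, and 0.791% and 0.716% in Amyrel heads. Of 8 other Hsp70 family genes, 3 rose and 1 fell in ProsB5, 1 rose in ProsB1, 5 rose and 1 fell in Ter94 and 1 rose and 2 fell in CG6272 thoraces, and none passed in Amyrel heads. Hsc70-3, the chaperone of the endoplasmic reticulum, was at 676 ± 121 CPM in ProsB5 and 971.5 ± 30.0 CPM in Ter94 thoraces, against 459 ± 51.3 CPM in controls (log2 0.50 and 0.85, adjusted p = 0.00263 and 1.34e-05). In CG6272 thoraces it fell to 368 ± 33.6 CPM (log2 -0.36, adjusted p = 0.0377). Hsc70-5 and Hsc70-2 also rose in Ter94 thoraces (log2 0.75 and 0.77, adjusted p = 3.33e-06 and 6.04e-06). The median log2 fold change of the 8 was 0.08 in ProsB5 and 0.28 in Ter94 thoraces, against 0.02 and 0.00 over all genes, and -0.03 in CG6272 thoraces, against 0.02.

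Of 18 measured J proteins, exchange factors and Hsp90 partners, 3 rose and 4 fell in ProsB5, 2 fell in ProsB1, 6 rose and 4 fell in Ter94 and 6 fell in CG6272 thoraces, and none passed in Amyrel heads. The 3 of 18 that rose in ProsB5 thoraces and the 6 of 18 in Ter94 thoraces were near the shares of 17.3% and 29.7% over all genes. CG7130, a J protein, was at 9.20 ± 2.46 CPM in ProsB5 and 28.0 ± 3.64 CPM in Ter94 thoraces, against 4.35 ± 0.98 CPM in controls (log2 1.02 and 2.46, adjusted p = 0.00132 and 2.36e-07). DnaJ-H, another J protein, was at 198 ± 11.6 CPM in Ter94 thoraces, against 81.9 ± 3.11 CPM in controls (log2 1.04, adjusted p = 6.53e-09). Tpr2, a J protein with TPR repeats, fell in all 4 knockdowns, by 0.25 (ProsB1), 0.40 (ProsB5), 0.58 (Ter94) and 0.38 (CG6272) on the log2 scale. Hsp83, the fly Hsp90, fell to 572 ± 81.7 CPM in CG6272 thoraces, against 984 ± 289.9 CPM in controls (log2 -0.79, adjusted p = 0.0191). The median of the 18 was 0.07 in ProsB5, -0.04 in ProsB1, 0.02 in Ter94 and -0.19 in CG6272 thoraces and 0.11 in Amyrel heads, against medians of all genes from 0.00 to 0.02.

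Small heat shock proteins, which hold unfolded proteins for Hsp70, included large changes in single genes. Of 10 measured, 5 rose and 2 fell in ProsB5, 2 rose in ProsB1, 7 rose and 2 fell in Ter94 and 2 rose and 2 fell in CG6272 thoraces, with medians of 0.27, -0.03, 0.72 and 0.04 on the log2 scale, and 1 rose in Amyrel heads, with a median of 0.25. Over all genes the share higher was 17.3% in ProsB5, 11.6% in ProsB1, 29.7% in Ter94 and 13.3% in CG6272 thoraces and 0.791% in Amyrel heads. Hsp23 was at 599, 334 and 324 CPM in Ter94 thoraces, where no member was called, and at 61.2, 201 and 59.0 CPM in ProsB5 thoraces, against 4.17 to 16.0 CPM in controls (log2 5.38 and 3.57, adjusted p = 6.84e-07 and 6.92e-05). In ProsB1 thoraces it was at 8.51, 12.7 and 12.5 CPM (log2 0.32, adjusted p = 0.677), and the difference of ProsB5 from ProsB1 passed (log2 3.25, adjusted p = 0.00430). In Amyrel heads Hsp23 was at 1468, 479 and 189 CPM, against 23.4, 26.1 and 29.0 CPM in control heads, and was the gene of the list that passed (log2 4.77 ± 0.71, adjusted p = 0.0236). As with Hsp68, Amyrel replicate 1 was highest and replicate 3 lowest. Hsp27 rose in all 3 knockdowns of the proteasome and Ter94, by 2.02 (ProsB1), 2.99 (ProsB5) and 1.53 (Ter94), and fell by 1.84 in CG6272 thoraces, at 2.13 ± 0.14 CPM against 7.48 ± 4.51 CPM in controls (adjusted p = 0.0314).

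The regulator Hsf itself moved little. Its log2 fold change was 0.11 ± 0.04 in Ter94 thoraces (adjusted p = 0.0350) and did not pass in ProsB1 (-0.06), ProsB5 (-0.03) or CG6272 thoraces (-0.15) or in Amyrel heads (0.05). Of the 12 genes of Hsf and the factors of the paused promoter (GAGA factor, NELF, Spt proteins, P-TEFb and Parp), 1 rose in ProsB1, 1 in ProsB5 and 2 in CG6272 thoraces, none in Amyrel heads, and 4 rose and 2 fell in Ter94 thoraces, where 29.7% of all genes were higher and 28.4% lower. The 4 of 12 in Ter94 and the 2 of 12 in CG6272 thoraces, where 13.3% of all genes were higher, were near those shares. The noncoding alphagamma-element:CR32865, whose promoter resembles that of Hsp70, fell in CG6272 thoraces to 0.174, 0.230 and 0.379 CPM, against 0.471 to 3.84 CPM in controls (log2 -2.78 ± 0.77, adjusted p = 0.0338). In Amyrel heads it was at 38.7, 18.2 and 10.2 CPM, against 2.18, 4.53 and 4.51 CPM in control heads, without passing (log2 2.60 ± 0.50, adjusted p = 0.0560). Of the 2 noncoding heat shock genes, the other being Hsromega, none was called in ProsB1, ProsB5 or Ter94 thoraces or in Amyrel heads.

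**Figure D5:**
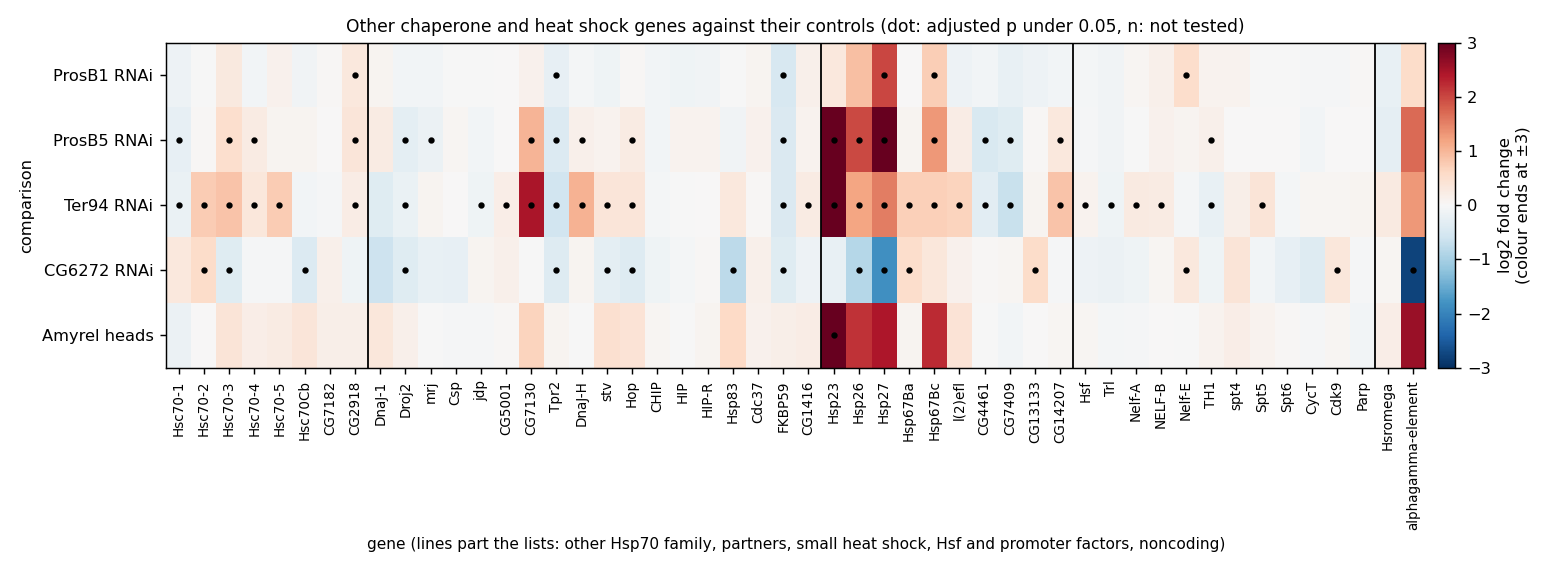
Log2 fold changes of other chaperone and heat shock genes (columns, by list) in 5 comparisons (rows) against their controls, red for higher and blue for lower, with a dot where adjusted p is under 0.05. Hsp23 is deep red in ProsB5, Ter94 and Amyrel rows, and Hsp27 and alphagamma-element:CR32865 are blue in the CG6272 row.

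Over the 18 thorax libraries the log2 CPM of the Hsp70 sum and of Hsp68 correlated at r = 0.964, as a description of libraries that share groups, tissue and depth. Among 11308 other genes the levels most like the Hsp70 sum were those of Hsp27 (0.962), Hsp26 (0.925), alphagamma-element:CR32865 (0.890), unc-45 (0.884), a chaperone of myosin, and Rac1 (0.875), a small GTPase. Those most like Hsp68 were Hsp26 (0.937), Hsp27 (0.928), alphagamma-element:CR32865 (0.888), unc-45 (0.836) and JhI-1 (0.821). Hsp23 is in neither group.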

How the data were processed

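The authors deposited raw counts of reads per gene for each library. TruSeq stranded mRNA libraries were read on an Illumina HiSeq instrument, per the labels' protocols, and reads were aligned with STAR to BDGP5, per the submitters' processing notes. For counting tool, annotation and strand setting the sources used here give no statement. The 5 summary rows of each file were left out. Counts were tested in R 4.3.3 with edgeR 4.0.16 (filterByExpr with a minimum count of 10 and total of 15, TMM scaling, two-sided quasi-likelihood F tests, Benjamini-Hochberg adjustment over all genes tested, called at adjusted p under 0.05). The 15 ProsB1, ProsB5, Ter94, white and GFP thoraces shared 1 fit (11262 genes), CG6272 was fitted with the 6 controls (10784 genes), and heads apart (10748 genes). Controls are the mean of the white and GFP groups. For the Hsp70 sum the 6 copies were replaced by 1 row. CPM in the text are per 1000000 reads in genes, without TMM, and means are given ± SD. A likeness is Pearson's r of edgeR's log2 CPM with a prior count of 2. The tests were tried on simulated data. Alternatives were DESeq2 1.42.0, RLE scaling, no filter, a replicate block, single controls, other sets of libraries, and each library left out. No 2 files were identical. Residuals of libraries of the same replicate number correlated over 0.1 in all pairs in heads (0.155 to 0.239) and in ProsB5 against ProsB1 (0.147 to 0.463). Libraries of different numbers were not compared, so whether the numbers pair the libraries was not tested. The members, lists (from which up to 3 called genes a comparison could be named, beside Hsf, the manipulated genes and the 5 most alike) and alternatives were chosen with earlier results of these data known. Counting intervals cover counting error only.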

Additional observations from a re-analysis of the deposited data

How the results depend on the processing

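Without the 3 ninaE-high controls the genes called numbered 1530 in ProsB1, 2274 in ProsB5 and 299 in CG6272 thoraces, against 2397, 3492 and 2463 with them, and the ProsB5 values were 1.78 (Hsp70 sum) and 1.21 (Hsp68). Without the Acp36DE-high libraries they numbered 2256 in ProsB5 and 843 in CG6272 thoraces, where the sum was -2.36 and Hsp68 -0.88. With white alone as control the ProsB5 sum was 2.32 (adjusted p = 0.0541) and CG6272 genes numbered 1246. Hsp68 in CG6272 thoraces missed the threshold at -1.05 with the replicate block, -1.001 with GFP alone, -1.07 with white alone and -1.04 with all 18 thoraces in the fit, which called 4328 genes. DESeq2 called 1025 genes in ProsB5 against ProsB1 (672 by edgeR, 327 with only those libraries) and 475 in heads (162 by edgeR). With the block, heads gave 2.71 (Hsp68) and 1.56 (sum), and apart from these and Hsp68 in CG6272 thoraces the block changed no call of the sum or Hsp68. With it 2 members were called in CG6272 and 0 in ProsB1 thoraces. Outside heads and ProsB5 against ProsB1 not every pair correlated over 0.1: 5 of 6 pairs with controls did in ProsB1 and in ProsB5, where all 3 pairs with GFP did, 2 of 6 in CG6272 and 0 of 6 in Ter94 thoraces. In white against GFP the sum was -0.11 from Hsp70Ba, Hsp70Bb, Hsp70Bbb and Hsp70Bc alone, and with the block Hsp70Ba was -0.0049 and Hsp70Bbb -0.033.

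With 1 library left out, the log2 values ran from 2.09 to 2.87 (sum) and 1.23 to 1.87 (Hsp68) in ProsB5, -2.97 to -2.36 and -1.19 to -0.88 in CG6272, and 1.36 to 1.76 and 2.16 to 3.44 in heads. In white against GFP they ran from -0.42 to 1.03 (sum) and -0.23 to 0.36 (Hsp68), and for the copies from -0.13 to 1.37 (Hsp70Aa), -0.18 to 1.32 (Hsp70Ab), -0.67 to 0.79 (Hsp70Ba), -1.15 to 0.22 (Hsp70Bb), -0.75 to 0.90 (Hsp70Bbb) and -1.10 to 0.58 (Hsp70Bc). Genes called ran from 1505 to 2391 (ProsB1), 1220 to 3147 (CG6272), 25 to 207 (heads), 371 to 613 (ProsB5 against ProsB1) and 828 to 1292 (white against GFP). The cause was not tested for any of these changes. RLE scaling moved the median of all genes by under 0.1 in each comparison. Single copies rest on as few as 40 reads.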
